A study of Homo sapiens with 21 samples.

Results

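Described here are 10 genes: the chemokine gene CCL2, the cytokine gene IL32, and a group of NF-kappaB target, regulator and subunit genes, VCAM1, ICAM1, NFKBIA, TNFAIP3, NFKB1, NFKB2, RELB and BIRC3. Each gene was represented by the probe set, among those annotated to its symbol alone, that had the highest mean over all 21 arrays. In this way 9 of the 10 genes were measured, of 18132 genes in all, and BIRC3 was not analysed here. CCL2 and IL32 were chosen with their differences under AG494 and between the genotypes in view, so their values in those comparisons are descriptions without a test. The other genes, and the role lists used below, were also chosen with earlier results of these data known. Their shares set beside those of all genes are therefore not independent evidence.

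The RNA came from SH-SY5Y, an established line from a human neuroblastoma that takes on neuronal traits when differentiated. One line was wild type (WT). The other (APP) bore V717F, a substitution in the amyloid precursor protein that occurs in families with early Alzheimer's disease. Before treatment both lines spent 3 to 4 days in medium with retinoic acid at 10 µM and BDNF, a neurotrophin, at 50 ng/mL. They were then kept for 72 h in 0.1% DMSO, alone or with a compound. WT cells received vehicle, AG494, NOSCA or PALBO, and APP cells received vehicle, AG494 or NOSCA, with 3 arrays in each of the 7 groups, named WT_DMSO to APP_NOSCA. AG494 is a tyrosine kinase inhibitor of the EGF receptor, and the other compounds are named as the labels write them. The labels give no doses, so compounds were set side by side at unknown doses, and they do not say how the mutated line was made or whether it is 1 clone. A difference between APP and WT cells is therefore a difference between 2 lines.

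NF-kappaB is a family of transcription factors formed by pairs of subunits. In resting cells inhibitory IkappaB proteins hold these pairs in the cytoplasm, and signals from cytokine or pattern-recognition receptors lead to the breakdown of the inhibitors and to entry of the pairs into the nucleus. The targets include chemokines and adhesion molecules, and also the pathway's own inhibitors and subunits, which form feedback loops. A second, slower branch works through the processing of NFKB2 and its pairing with RELB.

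Values are log2 intensities, normalised by the authors, on which a difference of 1 is a doubling. Array medians lay between 7.88 and 8.03. By their means over the 21 arrays, 8 of 9 noradrenergic markers of the neuroblastoma lineage and 8 of 8 neuronal markers lay above the median of all genes (8.44). So did 5 of 8 fibroblast and mesenchymal markers, with COL3A1, a collagen, the highest at 13.32, and 1 of 6 glial markers. None of 10 immune and none of 8 endothelial markers did. Immune cells, endothelial cells and fibroblasts are all known sources of several of the described genes. The arrays fall into 3 runs of title numbers, each with 1 array of every group, and arrays of a run deviated together. Where the call of one of the 9 genes depends on fitting the run as a block, both values are given. Cultures are bulk samples, in which fewer cells of a type and less RNA per cell cannot be told apart.

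The bases upstream of the start are shown for 4 genes, a cytokine, both adhesion molecules and an inhibitor, as examples of the letters before genes of different roles. They were picked after the values were seen. Windows of 250 bases before the start, from RefSeq on GRCh38.p14, were found by symbol for 8 of the 10 genes, all but CCL2 and RELB. Capitals mark matches, on either strand, to the kappaB consensus or to GGAAATTCC. IL32 lies at chr16:3065153-3065402 on the plus strand, VCAM1 at chr1:100719492-100719741 on the plus strand, ICAM1 at chr19:10270870-10271119 on the plus strand and NFKBIA at chr14:35404750-35404999 on the minus strand.
IL32: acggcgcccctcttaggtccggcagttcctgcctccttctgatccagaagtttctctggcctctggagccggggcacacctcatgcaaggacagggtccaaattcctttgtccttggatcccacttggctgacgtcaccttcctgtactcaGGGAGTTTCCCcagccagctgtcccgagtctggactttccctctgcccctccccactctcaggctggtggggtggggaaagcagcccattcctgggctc
VCAM1: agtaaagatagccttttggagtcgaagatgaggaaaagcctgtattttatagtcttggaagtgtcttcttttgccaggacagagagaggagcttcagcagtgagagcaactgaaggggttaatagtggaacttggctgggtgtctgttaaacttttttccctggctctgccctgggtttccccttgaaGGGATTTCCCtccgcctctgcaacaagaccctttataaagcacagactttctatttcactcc
ICAM1: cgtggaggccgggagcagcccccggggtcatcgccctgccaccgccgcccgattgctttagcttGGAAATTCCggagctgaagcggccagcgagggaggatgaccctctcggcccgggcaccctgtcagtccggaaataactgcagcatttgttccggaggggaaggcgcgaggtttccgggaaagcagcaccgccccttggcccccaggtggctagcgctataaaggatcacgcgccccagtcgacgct
NFKBIA: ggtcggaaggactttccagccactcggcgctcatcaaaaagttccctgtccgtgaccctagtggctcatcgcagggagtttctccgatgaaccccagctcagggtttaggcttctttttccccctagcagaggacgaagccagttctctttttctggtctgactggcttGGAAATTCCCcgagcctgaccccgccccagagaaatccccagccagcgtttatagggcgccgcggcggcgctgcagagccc
In the IL32 window, 2 overlapping matches to the kappaB consensus, GGGAGTTTCC and GGAGTTTCCC, began 99 and 98 bases before the start. A second RefSeq window of IL32, at chr16:3065534-3065783, held none. In the VCAM1 window, GGGATTTCCC began 62 bases before the start. The NFKBIA window held GGAAATTCCC 81 bases before the start, in which the consensus and GGAAATTCC overlap. The ICAM1 window held GGAAATTCC 186 bases before the start and no match to the kappaB consensus. Of 35116 RefSeq windows of this length, 9.96% held the consensus and 0.413% held GGAAATTCC. These matches describe the letters in the windows, and binding was not measured.

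AG494 in APP cells was the condition with the highest mean for each of the 9 measured genes. All 9 were higher on every APP_AG494 array than on any APP_DMSO array. Leaving out CCL2 and IL32, which were chosen on this response, these were 7 of 7 genes, and 9.06% of all genes showed such a separation in this direction. Of the 7 genes other than CCL2 and IL32, 6 rose (adjusted p under 0.05): VCAM1, ICAM1, NFKBIA, TNFAIP3, NFKB2 and RELB. Of all genes, 1.99% rose and 4.75% were called in either direction. The median difference over these 7 genes was 0.66, against -0.01 over all genes. The 7 genes, too, were chosen with earlier results of these data known, so these shares are descriptive.

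**Figure D1:**
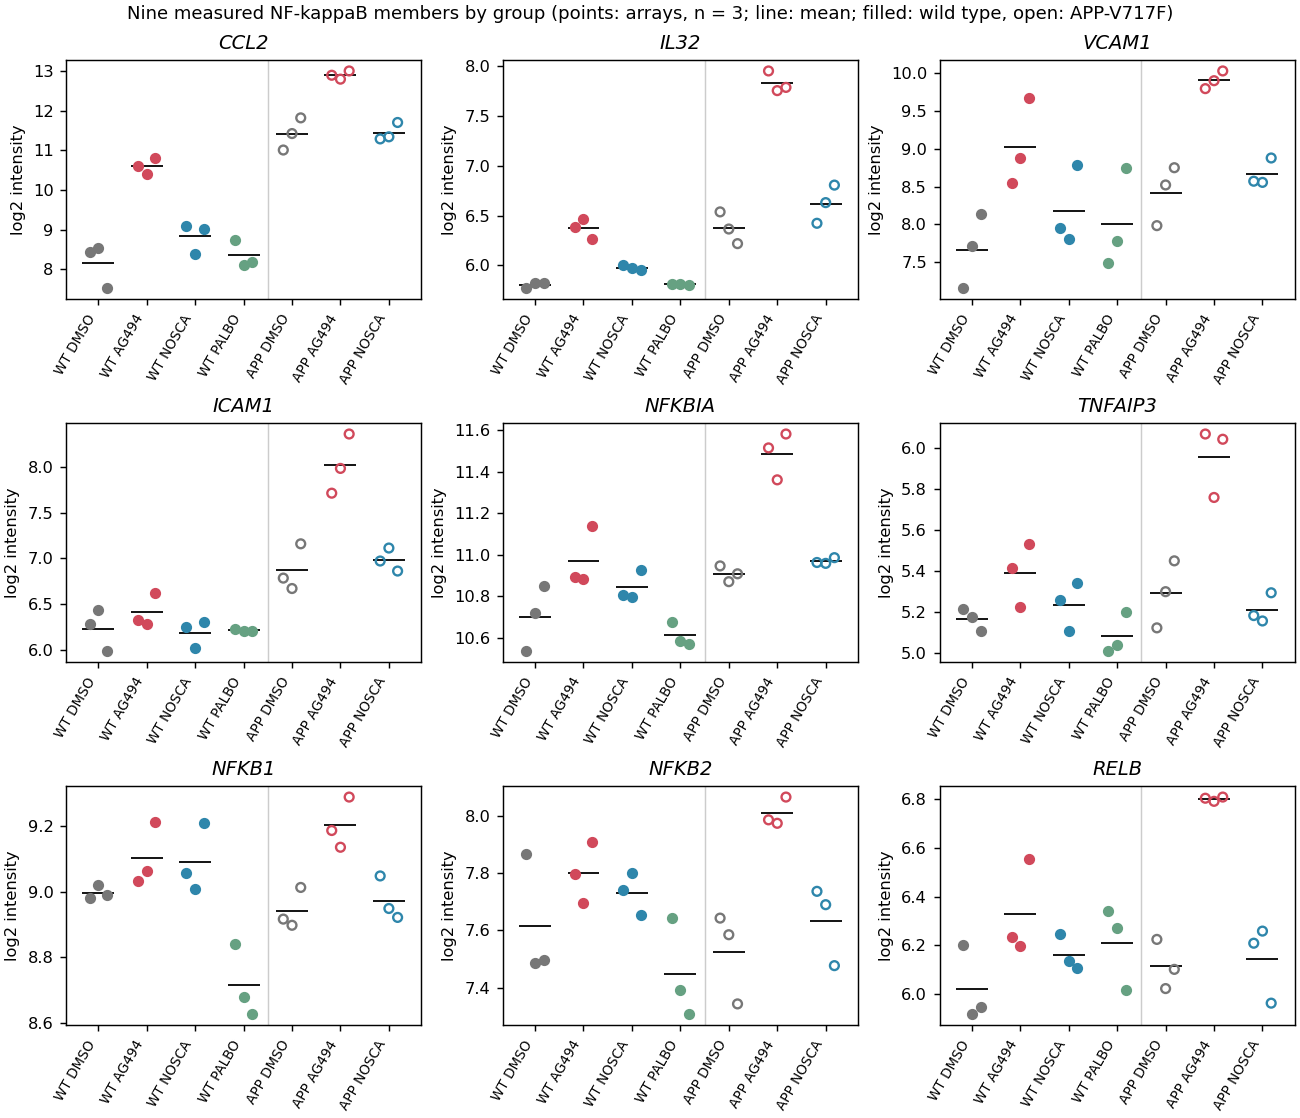
Log2 intensity of the 9 measured genes on each of the 21 arrays, by group, with 1 panel per gene. Points are arrays and bars are group means, and the APP_AG494 mean is the highest in all 9 panels.

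CCL2 encodes a chemokine that attracts monocytes. It lay at 8.44, 8.54 and 7.52 on the WT_DMSO arrays and at 10.61, 10.41 and 10.81 on the WT_AG494 arrays. In APP cells it lay at 11.01, 11.43 and 11.82 under vehicle and at 12.90, 12.80 and 13.01 under AG494. The 4 groups did not overlap, in the order WT_DMSO, WT_AG494, APP_DMSO, APP_AG494. The difference under AG494 was 2.44 (SE 0.25, 5.44-fold) in WT cells and 1.48 (SE 0.25, 2.79-fold) in APP cells. The arrays of the other groups overlapped those of the vehicle in their genotype, with 9.09, 8.40 and 9.02 on WT_NOSCA, 8.74, 8.12 and 8.18 on WT_PALBO, and 11.29, 11.34 and 11.71 on APP_NOSCA. The range of the CCL2 group means, 4.73, was at the 99.97th percentile of all genes. CCL2 was chosen with the differences that make up this range in view, so the rank is descriptive.

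IL32 encodes a cytokine made by several cell types in response to inflammatory signals. It lay at 5.77, 5.82 and 5.82 on the WT_DMSO arrays and at 6.39, 6.47 and 6.27 on the WT_AG494 arrays. In APP cells it lay at 6.54, 6.36 and 6.22 under vehicle and at 7.95, 7.76 and 7.79 under AG494. The WT_AG494 and APP_DMSO arrays overlapped, and the APP_AG494 arrays lay above all others. The difference under AG494 was 0.57 (SE 0.09, 1.49-fold) in WT cells and 1.46 (SE 0.09, 2.75-fold) in APP cells. WT_NOSCA (6.00, 5.97 and 5.95) lay above WT_PALBO (5.81, 5.81 and 5.80) without overlap, and APP_NOSCA lay at 6.42, 6.63 and 6.81. IL32 has 4 probe sets, and their differences under AG494 in APP cells ran from 1.46 to 1.85.

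VCAM1 and ICAM1 encode adhesion molecules that bind leukocyte integrins. VCAM1 lay at 7.98, 8.52 and 8.75 on the APP_DMSO arrays and at 9.80, 9.90 and 10.03 on the APP_AG494 arrays. It rose by 1.49 (SE 0.33, adjusted p = 0.0114). In this fit, which leaves out the run, the call was lost without APP_AG494 replicate 3 (adjusted p = 0.0516) or APP_DMSO replicate 1 (0.0627). On all arrays with the run as a block, the adjusted p was 3.85e-05. Its second, dimmer probe set gave 0.81 (adjusted p = 0.00444) in APP cells and 0.37 (adjusted p = 0.551) in WT cells. In WT cells VCAM1 lay at 7.15, 7.71 and 8.13 under vehicle and at 8.54, 8.88 and 9.67 under AG494, which did not overlap. This difference of 1.37 (SE 0.33) did not pass the test (adjusted p = 0.113), but passed with the run as a block (adjusted p = 0.000892). The array of the third run was the highest for VCAM1 in 7 of 7 groups.

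ICAM1 lay at 6.78, 6.67 and 7.16 on the APP_DMSO arrays and at 7.72, 7.99 and 8.36 on the APP_AG494 arrays, without overlap. It rose by 1.15 (SE 0.15, adjusted p = 0.000332). On the WT_DMSO arrays it lay at 6.28, 6.43 and 5.98 and on the WT_AG494 arrays at 6.33, 6.28 and 6.62, which overlapped. The WT difference was 0.18 (SE 0.15, adjusted p = 0.888). The other ICAM1 probe sets gave 0.78 and 0.46 in APP cells, the smaller of which did not pass (adjusted p = 0.244).

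**Figure D2:**
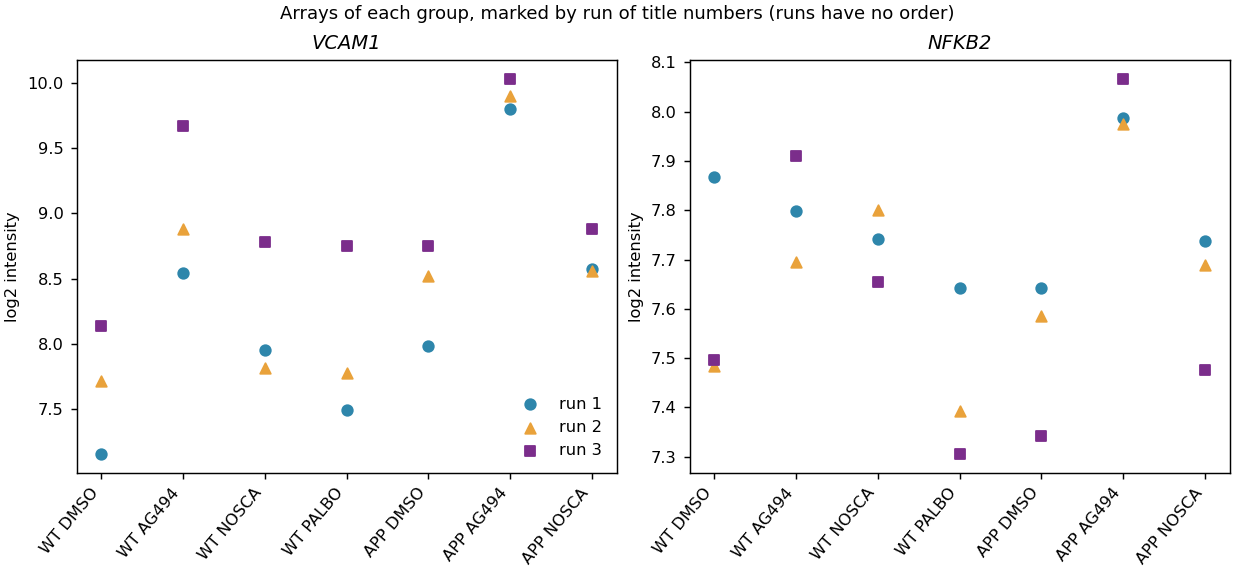
Log2 intensity of VCAM1 and NFKB2 on each array by group, with symbols for the 3 runs of title numbers. For VCAM1 the array of run 3 is the highest in 7 of 7 groups, and for NFKB2 the highest array is of run 1 in 4 groups.

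The inhibitors NFKBIA and TNFAIP3 rose as well. NFKBIA encodes IkappaB-alpha, which holds NF-kappaB in the cytoplasm. It lay at 10.95, 10.87 and 10.91 on the APP_DMSO arrays and at 11.52, 11.36 and 11.58 on the APP_AG494 arrays, and rose by 0.58 (SE 0.09, adjusted p = 0.000571). Its 3 probe sets gave 0.58 to 0.65. TNFAIP3 encodes A20, a ubiquitin-editing enzyme that limits the signal. It lay at 5.12, 5.30 and 5.45 on the APP_DMSO arrays and at 6.07, 5.76 and 6.04 on the APP_AG494 arrays, and rose by 0.66 (SE 0.10, adjusted p = 0.000743). TNFAIP3 was dim, with 13.3% of all genes below its mean, and its second probe set gave 0.09 (adjusted p = 0.866).

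Of the subunits, RELB, the partner of NFKB2 in the slower branch, lay at 6.22, 6.02 and 6.10 on the APP_DMSO arrays and at 6.81, 6.79 and 6.81 on the APP_AG494 arrays. It rose by 0.69 (SE 0.11, adjusted p = 0.000938). NFKB2, the precursor of p52, lay at 7.64, 7.58 and 7.34 against 7.99, 7.97 and 8.07 and rose by 0.49 (SE 0.11, adjusted p = 0.0146). In this fit, which leaves out the run, that call was lost without APP_AG494 replicate 3 (adjusted p = 0.0665) or APP_DMSO replicate 3 (0.0996). On all arrays with the run as a block, the adjusted p of NFKB2 was 0.00269. NFKB1, the precursor of p50, lay at 8.92, 8.90 and 9.01 against 9.19, 9.14 and 9.29. Its difference of 0.26 (SE 0.08) did not pass (adjusted p = 0.0563) but passed with the run as a block (adjusted p = 0.0189), where 4.72% of all genes rose. The other subunits RELA and REL did not pass, with differences of 0.07 and 0.19.

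In WT cells AG494 gave differences above 0 for all 9 genes. Of the 7 genes other than CCL2 and IL32, 4 had arrays above and not overlapping those of WT_DMSO, against 5.53% of all genes in that direction. None of the 7 passed the test of limma, where 0.165% of all genes rose and 0.254% were called in either direction. Of the 7 genes, 4 had an unadjusted p under 0.05, against 8.13% of all genes. With the run as a block, VCAM1 alone of the 7 passed, against 1.09% of all genes that rose. NFKBIA (0.27, SE 0.09, adjusted p = 0.267) and RELB (0.31, SE 0.11, adjusted p = 0.351) had the next smallest p-values.

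**Figure D3:**
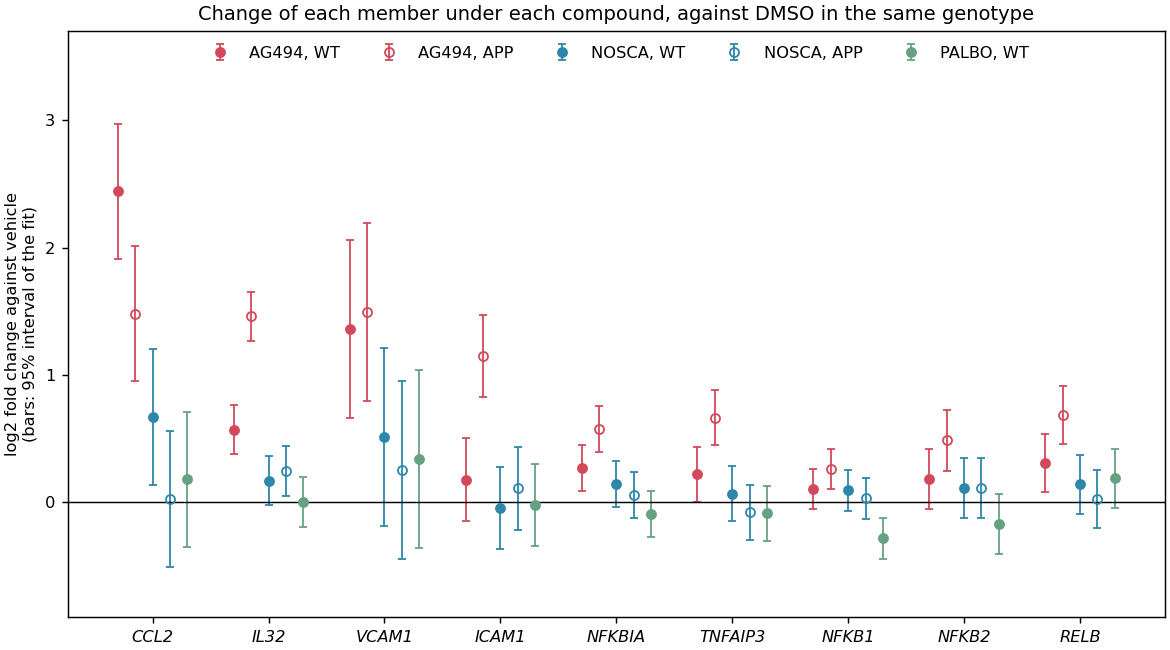
Log2 differences of the 9 genes from the vehicle of the same genotype, for each compound, with 95% intervals of the fit. Under AG494 the differences in APP cells run from 0.26 for NFKB1 to 1.49 for VCAM1, while those under NOSCA in APP cells run from -0.08 to 0.25.

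The size of the AG494 response in APP cells was set against that in WT cells. ICAM1 differed by 0.97 more in APP cells (SE 0.22), which did not pass (adjusted p = 0.13) but passed with the run as a block (adjusted p = 0.0325). In this comparison 0.0386% of all genes were called, and 1.26% with the block. TNFAIP3 (0.44, adjusted p = 0.351), RELB (0.38, adjusted p = 0.561) and NFKBIA (0.31, adjusted p = 0.526) did not pass. The second TNFAIP3 probe set gave 0.01 (adjusted p = 0.998). For VCAM1 the responses differed by 0.13, with a 95% interval from -0.86 to 1.12. CCL2 had the smaller response in APP cells, by -0.96 (SE 0.36), and IL32 the larger, by 0.89 (SE 0.13). By their means over the arrays, IL32 was dim, at the 30.75th percentile of all genes, and CCL2 was at the 72.05th. The part of the signal level in these differences was not tested.

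NOSCA gave no call. In WT cells none of the 9 genes passed, against 0.0165% of all genes, and in APP cells none passed, against 0% of all genes (limma without the block). One of the 9 genes had an unadjusted p under 0.05 in each genotype, against 6.91% of all genes in WT cells and 5.29% in APP cells. These were CCL2 in WT cells (0.67, SE 0.25, adjusted p = 0.61) and IL32 in APP cells (0.25, SE 0.09, adjusted p = 0.816). The arrays of 1 of the 9 genes lay above those of vehicle without overlap in each genotype. This was IL32 in WT cells (0.17, SE 0.09, adjusted p = 0.784), against 5.41% of all genes, and NFKBIA in APP cells (0.06, SE 0.09, adjusted p = 1), against 5.39%. The 95% interval of the NOSCA difference in APP cells was -0.50 to 0.56 for CCL2 and -0.21 to 0.44 for ICAM1. AG494 against NOSCA in APP cells was tested directly. There ICAM1 (1.04, SE 0.15, adjusted p = 0.00149), TNFAIP3 (0.74, SE 0.10, adjusted p = 0.000698), RELB (0.66, SE 0.11, adjusted p = 0.00342) and NFKBIA (0.52, SE 0.09, adjusted p = 0.00342) were higher with AG494. These were 4 of the 7 genes, against 0.822% of all genes. The second TNFAIP3 probe set did not pass (0.125, adjusted p = 0.901). VCAM1 (1.24, adjusted p = 0.0734) and NFKB2 (0.38, adjusted p = 0.12) passed with the run as a block (adjusted p = 0.000477 and 0.0267), where 2.82% of all genes were higher.

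PALBO was given to WT cells. NFKB1 lay at 8.98, 9.02 and 8.99 on the WT_DMSO arrays and at 8.84, 8.68 and 8.63 on the WT_PALBO arrays, without overlap. It fell by 0.28 (SE 0.08, adjusted p = 0.0275), 1 of the 9 genes, against 3.87% of all genes that fell and 6.98% called in either direction. The call was lost without any 1 of 5 of the 6 arrays, WT_DMSO replicates 1, 2 and 3 and WT_PALBO replicates 2 and 3 (adjusted p up to 0.134). CCL2 (0.18, 95% interval -0.35 to 0.71) and IL32 (0.00, 95% interval -0.19 to 0.20) did not pass. Against AG494 in WT cells, NFKB1 was lower with PALBO by -0.39 (adjusted p = 0.0063) and NFKBIA by -0.36 (adjusted p = 0.0232), 2 of the 7 genes, against 2.05% of all genes. With the run as a block 5 of the 7 were lower, against 4.74% of all genes. The added ones were VCAM1 (-1.03, adjusted p = 0.12, with the block 0.000988), TNFAIP3 (-0.31, adjusted p = 0.137, with the block 0.0241) and NFKB2 (-0.35, adjusted p = 0.111, with the block 0.0267). The second TNFAIP3 probe set gave -0.01 (adjusted p = 0.947 without the block). NFKB1 was also lower with PALBO than with NOSCA (-0.38, SE 0.08, adjusted p = 0.00716), where 2.1% of all genes were lower.

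The genotypes were compared under each treatment that both received. CCL2 was higher in APP than in WT cells by 3.25 (SE 0.25, 9.53-fold) under vehicle, and IL32 by 0.57 (SE 0.09, 1.48-fold). Under NOSCA CCL2 was higher by 2.61 (SE 0.25, 6.11-fold) and IL32 by 0.64 (SE 0.09). ICAM1 was higher as well under NOSCA, by 0.80 (SE 0.15, adjusted p = 0.00235). ICAM1 was 1 of the 7 genes other than CCL2 and IL32 to pass, against 3.56% of all genes that were higher. The arrays under NOSCA come from the same pair of lines, and CCL2 and IL32 were chosen with the line difference under vehicle in view. Their differences under NOSCA are therefore descriptions without a test as well. One of the 4 IL32 probe sets gave a smaller difference here (0.44).

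Under vehicle, ICAM1 was higher in APP cells by 0.64 (SE 0.15, adjusted p = 0.0112), 1 of the 7 genes, against 5.2% of all genes. The call was lost without WT_DMSO replicate 3 (adjusted p = 0.0593) or APP_DMSO replicate 3 (0.0719), and with only the groups compared in the fit (0.0646). One of the other ICAM1 probe sets did not pass between the genotypes under vehicle (0.22, adjusted p = 0.628), NOSCA (0.43, 0.249) or AG494 (0.64, 0.0514). VCAM1 was higher by 0.75 (SE 0.33) with overlapping arrays (adjusted p = 0.2) and passed with the run as a block (adjusted p = 0.00527), where 10.2% of all genes were higher. The subunits NFKB1 (-0.06), NFKB2 (-0.09) and RELB (0.10) did not pass. Under AG494, ICAM1 (1.61, SE 0.15, adjusted p = 7.93e-07), TNFAIP3 (0.57, SE 0.10, adjusted p = 0.00108), NFKBIA (0.52, SE 0.09, adjusted p = 0.000483) and RELB (0.47, SE 0.11, adjusted p = 0.00799) were higher in APP cells. These were 4 of the 7 genes, against 4.1% of all genes. The second TNFAIP3 probe set did not pass (0.14, adjusted p = 0.727). The RELB call was lost without WT_AG494 replicate 2 (adjusted p = 0.0506), and VCAM1 (0.88, adjusted p = 0.122) passed with the block (adjusted p = 0.00163), where 8.45% of all genes were higher.

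**Figure D4:**
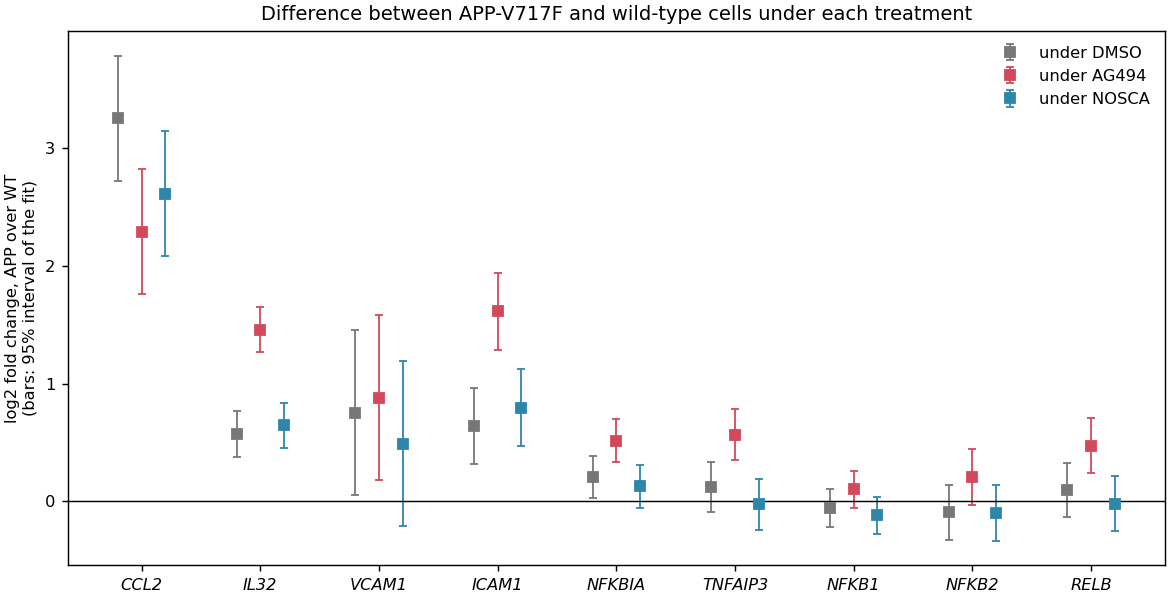
Log2 differences between APP and WT cells for the 9 genes under vehicle, AG494 and NOSCA, with 95% intervals of the fit. CCL2 is higher in APP cells by 3.25, 2.29 and 2.61 in these treatments, and ICAM1 by 0.64, 1.61 and 0.80.

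The order of the group means differed between the genes. For ICAM1 the 4 WT groups overlapped as neighbours and lay below APP_DMSO and APP_NOSCA, which overlapped, and APP_AG494 lay above these. For VCAM1 the 6 groups below APP_AG494 overlapped from each to the next. For TNFAIP3, NFKB2 and RELB the 6 lower groups likewise overlapped as neighbours, with APP_AG494 apart. For NFKB1 it was WT_PALBO, the lowest group, that stood apart from its neighbour, while APP_AG494 overlapped WT_AG494.

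The rest of the pathway was described through 111 measured genes of 120 listed by role, in lists also chosen with earlier results of these data known. Under AG494 in APP cells 9 of them rose and none fell, which is 8.11% called against 4.75% of all genes, and with the run as a block 17 rose and 3 fell, where 11.8% of all genes were called. Among the targets, IRF1, a transcription factor of interferon responses, rose by 0.90 (SE 0.11, adjusted p = 0.000121). CSF1, a growth factor of macrophages (0.54), SELE, an endothelial adhesion molecule (0.50), CD83, a surface protein of dendritic cells (0.50), and SDC4, a proteoglycan (0.60), also rose. For SELE and CD83 the APP_DMSO mean was the lowest of the 7 groups. It was 5.93 for SELE and 8.96 for CD83, against 6.25 and 9.27 in WT_DMSO and 6.43 and 9.46 in APP_AG494. Of 16 receptors, TLR3, which senses double-stranded RNA, rose by 1.10 (SE 0.17, adjusted p = 0.000833) and TNFRSF1A, a receptor of TNF, by 0.32 (SE 0.08, adjusted p = 0.0316). Of 12 further inhibitors TRAF3, which restrains the slower branch, rose by 0.56, and of 24 kinases and adaptors TRADD, which binds the TNF receptor, rose by 0.39. None of 9 activating ligands passed, with -0.03 for TNF and 0.04 for IL1B, and neither did the classical targets CXCL8 (0.03) and IL6 (0.22). These genes were dim. Their APP_DMSO means were 5.24 for TNF, 5.81 for IL1B, 5.31 for CXCL8 and 5.53 for IL6, against a median of 8.44 over all genes. The arrays carry no detection calls, so at such levels an unchanged gene and an undetected one cannot be told apart. With the block 5 receptors rose, EDA2R, TNFRSF12A and EDAR besides those named, and 1 ligand, LTB, a subunit of lymphotoxin (0.23, adjusted p = 0.264, with the block 0.0364).

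Under AG494 in WT cells 2 of the 111 genes rose, IRF1 (0.64, SE 0.11, adjusted p = 0.0156) and CYLD, a deubiquitinase that limits the signal (0.45, SE 0.09, adjusted p = 0.0279), which is 1.8% against 0.254% of all genes. With the block 3 rose and 2 fell, 4.5% against 1.97% of all genes. Between APP and WT cells under vehicle 8 were higher in APP cells and 3 lower, 9.91% against 9.25% of all genes, a share near the background. With the block 13 were higher and 6 lower, 17.1% against 17.4%. IRF1 (1.04), CYLD (0.62) and RNF31, a subunit of the linear ubiquitin ligase (0.54), were higher, and the chemokine CX3CL1 was lower (-0.64). Under NOSCA none of the 111 passed in either genotype.

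Under PALBO in WT cells 3 of the 111 genes rose and 3 fell, 5.41% against 6.98% of all genes, and with the block 6 rose and 6 fell, 10.8% against 15.1%. CYLD rose by 0.62 (SE 0.09, adjusted p = 0.000202), with RNF31 (0.23) and RBCK1 (0.20), both of the linear ubiquitin ligase. TNFAIP8, a TNF-induced gene, fell by 1.07 (SE 0.12, adjusted p = 2.11e-05). EDA2R, of the TNF receptor family, fell by 0.94 (adjusted p = 0.00913), and PLAUR, the urokinase receptor, fell by 0.67 (adjusted p = 0.00489).

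**Figure D5:**
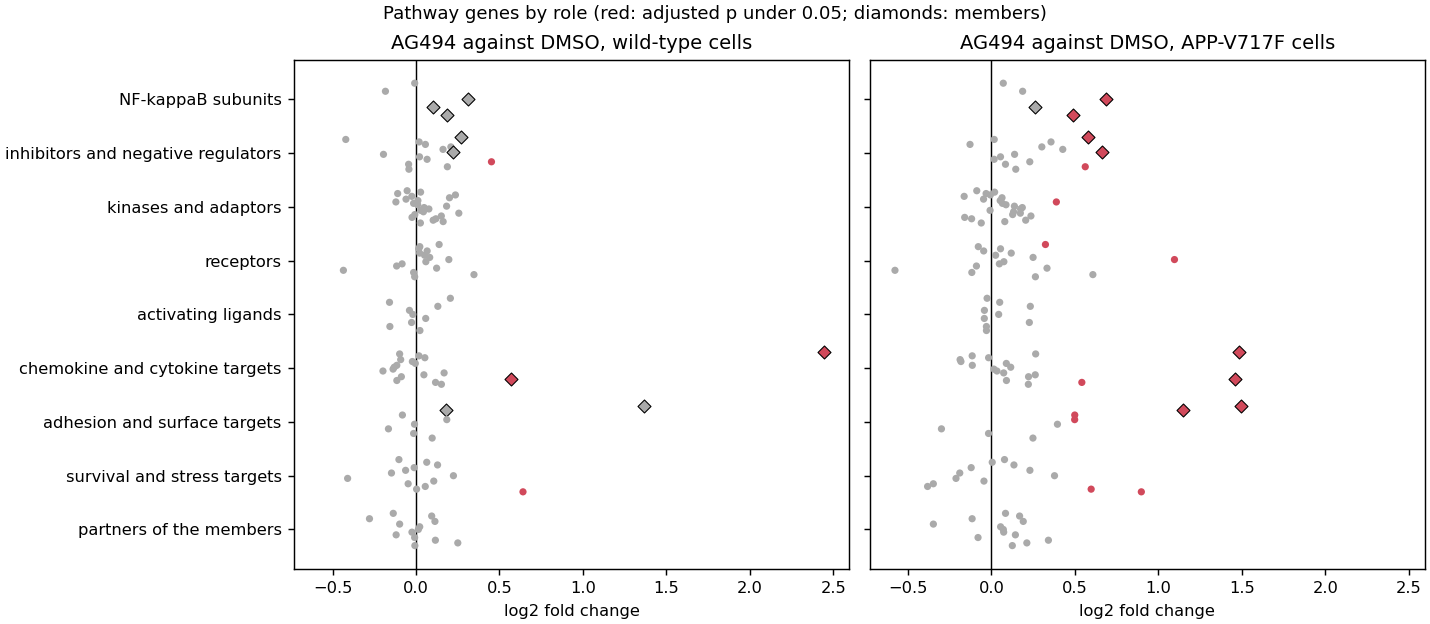
Log2 differences between AG494 and vehicle in WT cells (left) and APP cells (right) for the pathway genes, grouped by role. Points are genes, diamonds are the 9 described genes and red marks an adjusted p under 0.05, which none of the 9 activating ligands reached.

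Markers of other cell types were read beside these results. The mean of the 10 immune markers lay at 6.19 to 6.28 on the APP_DMSO arrays and at 6.26 to 6.36 on the APP_AG494 arrays. One of them rose, CD68, a lysosomal protein of macrophages (0.52, SE 0.09, adjusted p = 0.00238), to a mean of 8.53. The means of the 8 endothelial markers (5.97 to 6.04 and 5.96 to 6.10) and of the 8 fibroblast markers (9.26 to 9.36 and 9.30 to 9.51) overlapped, and none of these markers passed. The mean of the 6 glial markers was higher without overlap (6.54 to 6.64 and 6.67 to 6.74), with none passing. That of the 8 neuronal markers was lower without overlap (11.92 to 12.10 and 11.74 to 11.86). Of these, NEFM, a neurofilament subunit, fell by 0.51 and SNAP25, a synaptic protein, fell by 0.22.

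Between the genotypes under vehicle, none of the immune and none of the endothelial markers passed. Of the 9 noradrenergic markers 2 were higher in APP cells and 1 lower. Of the 8 neuronal markers 1 was higher and 2 were lower, where 9.25% of all genes were called in either direction. The neuronal mean overlapped (11.87 to 12.03 in WT_DMSO and 11.92 to 12.10 in APP_DMSO). Of the fibroblast markers DCN, a matrix proteoglycan, was higher in APP cells (1.55) and 3 were lower, with COL1A1, a collagen, at -1.19. The glial mean was lower in APP cells without overlap (6.54 to 6.64, against 6.78 to 6.84 on the WT_DMSO arrays), and S100B, a calcium-binding protein, was lower by -1.01. Under AG494, CD68 (0.45) and PECAM1, an endothelial adhesion molecule (0.34), were higher in APP cells and 2 fibroblast markers were lower. From WT_DMSO to WT_PALBO, where NFKB1 fell, the neuronal mean was higher (11.87 to 12.03 and 12.18 to 12.28), as was the glial mean (6.78 to 6.84 and 6.90 to 6.97). The part of these markers in the results was not tested.

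The genes whose means over the 7 groups were most like those of CCL2 were CXCR2, CORIN, FAR2, PLXDC2 and SIN3A, with Pearson's r from 0.991 to 0.997. CORIN had a range of group means of 1.67 and r of 0.979 over the 21 arrays. For CXCR2 and SIN3A the ranges were 0.21 and 0.12. Most like IL32 were NSUN3, C16orf74, TMEM37, TLR3 and TIMP1, with r from 0.988 to 0.995, and TLR3 had a range of 1.48. Between CCL2 and IL32 themselves r over the group means was 0.906. These values describe 7 groups that share 21 arrays.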

How the data were processed

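PrimeView arrays (Affymetrix) were hybridised with amplified RNA, 25 ng per sample, from 21 samples. The authors deposited log2 intensities. RMA and affy are the tools named by the submitters' processing notes, and their versions are not given in the sources used here. They carry no counts or detection calls, so the number of arrays limits precision. Of 49372 probe sets, 79 controls were left out, and 44988 had 1 symbol. The probe set with the highest mean represented each of 18132 genes.

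All arrays entered 1 fit in limma 3.58.1 (R 4.3.3; lmFit, eBayes; 7 group coefficients, 14 residual and 4.27 prior degrees of freedom). Two-sided p-values were adjusted over all genes within each of 14 comparisons (Benjamini-Hochberg, threshold 0.05). The fit was tested on simulated data. Groups came from the labels. Residuals correlated within runs of title numbers (63 pairs of arrays, 0.23 to 0.68) and less between runs (126 pairs, -0.53 to 0.09), so the runs pair the arrays; the series describes 3 independent experiments. Of the genes of each role list with adjusted p under 0.05, at most 4 per list were named in a comparison, and not all called genes were named. The 5 most alike patterns for CCL2 and IL32 were named as well. The described genes and lists were chosen with earlier results of these data known. Alternatives are given in the closing section.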

Additional observations from a re-analysis of the deposited data

Results flagged for a closer look

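IL32 differed between the genotypes in its response to AG494. Its difference from vehicle was 1.46 in APP cells and 0.57 in WT cells, and the interaction term was 0.89 (SE 0.13). IL32 was chosen with both responses in view, so these values are descriptions without a test. By its mean it was also dim, at the 30.75th percentile of all genes.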

How the results depend on the processing

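Counts of called genes among the 9, and the 23 calls below, include CCL2 and IL32. These 2 genes were chosen with such differences in view, so their part in the counts is descriptive. Under AG494 in WT cells the count of 2, where 0.165% of all genes rose, was CCL2 and IL32 alone. It became 0 with only the groups compared in the fit and 1 without the dimmest 33.3% of genes. When single arrays were left out it was 1 to 2 (1 without WT_AG494 replicate 2). For the genotypes under AG494 the count of 6, where 4.1% of all genes were higher, became 3 without the dimmest genes. The reason was that TNFAIP3, RELB and IL32 were then not tested. These genes dropped out of every comparison, so their calls under AG494 in APP cells were not tested either. Without the dimmest genes, 14 of the 23 calls were left. Under PALBO the count of 1, where 3.87% of all genes fell, became 0 with only the groups compared. It was 0 with a trended and robust prior, and 0 to 1 when single arrays were left out. Beyond the removal of dim genes, the cause was not tested. The fit with only the groups compared also ended the call of ICAM1 between genotypes under vehicle (adjusted p = 0.0646). No result changed direction under the alternatives run. With single arrays left out, calls of single genes held 125 times and were lost 13 times, and all 23 calls held under the replicate block, centring on array medians, repeated quantile normalisation and the mean of probe sets. The block added the calls named beside the results and removed none of the 23. Checked on each other probe set of the same gene, a call was lost 7 times and kept 23 times. These are counts of probe sets and not the 23 calls above. IL32, with 4 probe sets, weighs heavily among them, and the losses were in ICAM1, TNFAIP3 and IL32. CCL2, NFKB1, NFKB2 and RELB have 1 probe set each, so their calls could not be checked in this way.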
